A study of Caenorhabditis elegans with 2 samples.

Results

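The nuclear hormone receptor genes of Caenorhabditis elegans were examined for binding of GMEB-1 near their starts. Members were all protein-coding genes of the Ensembl annotation with a symbol that begins with nhr-, which gave 269 of 19973 protein-coding genes on the nuclear chromosomes. Binding was measured by chromatin immunoprecipitation and sequencing of an eGFP-tagged GMEB-1 in whole L2 larvae of both sexes. The strain, OP343, carries the integrated transgene wgIs343 with the allele unc-119(ed3), and the study has a single group of 2 biological replicates, with no untagged, untreated or mutant animals beside it. A gene was called bound when a region kept by the irreproducible discovery rate (IDR), a measure of how reproducibly regions rank, had its summit from 1000 bp upstream to 200 bp downstream of one of its transcript starts. Such a region need not have been found in each replicate separately. Whole animals were used, so the cells in which a promoter was bound are not known, and the transgene adds a tagged copy of the factor. With 1 group no test across samples is possible, so shares are set beside those of all protein-coding genes and are descriptions.

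Nuclear hormone receptors are transcription factors with a zinc-finger DNA-binding domain and a ligand-binding domain, and many are switched by lipids, steroids or other small molecules. Worms carry far more of these genes than insects or mammals, because a receptor related to the mammalian HNF4 type multiplied within the nematode lineage. A few worm receptors have clear counterparts in other animals and act in moulting, developmental timing and neuron or gonad development. Of the expanded receptors, those studied in most detail adjust fat, propionate and detoxification metabolism in the intestine. GMEB-1 is itself a relative of mammalian factors named for modulating the response to a nuclear receptor, the glucocorticoid receptor.

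GMEB-1 summits lay in the promoters of 48 of the 269 receptor genes, or 17.8%. Over all protein-coding genes 16.4% were bound (3267 of 19973), so the family's share was near the background. None of the 7 conserved receptors was bound, and all 48 bound genes belonged to the 262 other members (18.3%). The binding was of low rank. The 49 summits at receptor promoters (nhr-34 had 2) had a median rank of 2597 among the 3909 IDR regions, ordered by the signal that the authors' caller gave each region, with ranks from 416 to 3882. The 2547 summits in promoters of any gene had a median rank of 1657. Only 2 of the 49 summits (4.08%) were among the 1000 strongest regions, against 33.2% of all promoter summits, and 16 (32.7%) were among the 1954 strongest, against 56.9%. With those 1954 regions alone, 16 receptor genes were bound, or 5.95%, against 10.2% of all genes.

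Both replicates were compared at these summits through the regions of their own relaxed lists, which hold 28693 regions for replicate 1 and 30000 for replicate 2 and include background on purpose. At the bound members the signal and rank in the IDR list equalled those in the list called on both replicates together. Agreement with a replicate is therefore partly built in. All 49 summits lay in a region of replicate 2 and 37 (75.5%) in a region of replicate 1, where 76.6% of all promoter summits did. Within the 3909 strongest regions of a replicate there were 41 in replicate 2 (83.7%, against 94.9% of all promoter summits) and 22 in replicate 1 (44.9%, against 50.8%). In both at once there were 19 (38.8%, against 48%). With the strongest 3909 regions of replicate 2 used alone, 41 receptor genes were bound (15.2%, against 16.5% of all genes). Of these 41, 40 were among the 48. With the strongest 3909 regions of replicate 1 used alone, 31 were bound (11.5%, against 11.8% of all genes), and 21 of them were among the 48. The 18 receptor genes bound in both of these lists were all in the IDR set: nhr-13, nhr-32, nhr-34, nhr-35, nhr-41, nhr-47, nhr-48, nhr-49, nhr-57, nhr-58, nhr-66, nhr-87, nhr-88, nhr-97, nhr-119, nhr-142, nhr-255 and nhr-256. The IDR list was made from both replicates, and the matching count over all genes is not given here.

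**Figure D1:**
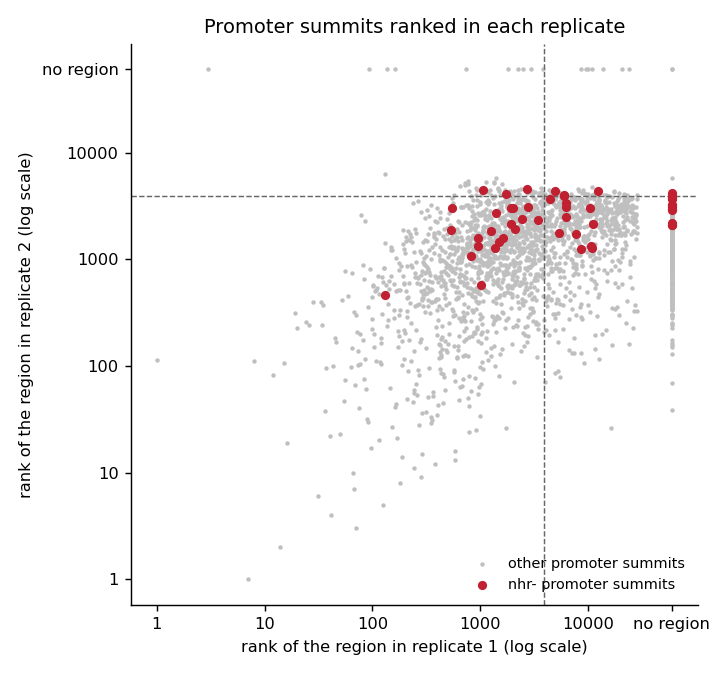
Rank of the region that holds each promoter summit in replicate 1 (x axis) and replicate 2 (y axis), both on log scales, for the 49 summits at nhr- promoters (red) and the other promoter summits (grey), with dashed lines at rank 3909 and summits in no region of a replicate at the edge. The red points lie in the lower-ranked part of the cloud, with 12 of them in no region of replicate 1.

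The strongest receptor summit was at nhr-47 (V 5505258), with a signal of 260.0 and rank 416. It ranked 130 in replicate 1 and 457 in replicate 2. It lay in the 5' UTR, 5 bp past the start of nhr-47, and was also 401 bp upstream of the start of dnj-19, which encodes a DnaJ co-chaperone. The second was 508 bp upstream of nhr-142 (V 5791061, signal 199.0, rank 575) and ranked 1020 in replicate 1 and 575 in replicate 2. It was closer to the start of the neighbouring gene F44E7.9, at 169 bp. These were the only members with a promoter summit among the 1000 strongest regions, and both shared the summit with a gene outside the family. The third, nhr-119 (II 2801012, 412 bp upstream, signal 122.0, rank 1007), had its summit to itself and ranked 821 and 1065 in replicates 1 and 2.

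At nhr-34 (IV 9670140, rank 1295) the replicates gave ranks 1361 and 1286, and its second summit, in a coding exon 67 bp past another start, had rank 2233. The summit at nhr-56 (V 2219045, rank 1330) ranked 8620 in replicate 1 and 1243 in replicate 2. At nhr-256 (V 1743715, 56 bp upstream, rank 1485) the ranks were 1479 and 1462. The replicates were thus close at nhr-34 and nhr-256 and far apart at nhr-56. At nhr-35 (X 4532325, rank 1526) the ranks were 958 and 1582, and at nhr-97 (IV 9757239, rank 1812) they were 1270 and 1843. The summits at nhr-105 (IV 7049839, rank 1573) and nhr-135 (V 7094009, rank 1789) had ranks 10674 and 5418 in replicate 1, against 1318 and 1773 in replicate 2. Both stood far higher in replicate 2 than in replicate 1. The weakest promoter summits were those of nhr-213 (signal 38.9, rank 3882), nhr-31 (38.9, rank 3881), which acts in growth of the excretory canal and also had an intronic summit of rank 1261, and nhr-10 (39.0, rank 3874). In replicate 1 these ranked 5925, 12341 and 4975.

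Of the 49 receptor summits, 42 (85.7%) lay in the promoter of no other protein-coding gene, as did 67.3% of the 2498 other promoter summits, and 0 were shared by 2 receptors. The 7 shared ones were those of nhr-47, nhr-142, nhr-68 (with H12C20.7, whose start was 26 bp away), nhr-80 (with H10E21.1, 303 bp away), nhr-232 (with the Ro RNA-binding protein gene rop-1, 247 bp), nhr-184 (with nstp-8, 733 bp) and nhr-213 (with the chemoreceptor gene str-60, 517 bp). When each summit was given only to the nearest start, 43 receptor genes were still bound, or 16%, beside 12.2% of all genes. Of the 49 summits, 38 were intergenic, 6 were in 5' UTRs, 4 in introns and 1 in a coding exon. Intergenic sequence held 78.8% of all promoter summits. The median position was 296 bp upstream of the member's start, against 222 bp over all 3424 pairs of a gene and a promoter summit, and 13 of 49 lay more than 500 bp upstream (26.5%, against 19.5%). The summit at nhr-41 (IV 1388305) was 18 bp from a tRNA gene and that at nhr-255 (X 15742021) was 29 bp from one, and these were the only 2 of the 49 within 200 bp of a tRNA gene (4.08%, against 1.69% of all promoter summits).

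The sequence under the summits was searched for 5 short motifs. Windows of 101 bp were centred on the summits, and motifs were searched on both strands. GAGAGA was in 25 of the 49 receptor windows, or 51% (95% Wilson interval 37.5 to 64.4, counting error only), against 19.1% of the 2498 other promoter summits and 8.42% of windows centred 150 bp upstream of each of the 19973 genes. ACGCAG was in 15 receptor windows, or 30.6% (19.5 to 44.5), against 14.4% and 3.10%. Both intervals treat the windows as independent, although some lie at neighbouring receptor genes. Against other promoter summits the GC-rich motifs went the other way. ACGCGC was in 1 receptor window (2.04%, at nhr-47), against 16.5% of other promoter summits, and GAGCGC was in 3 (6.12%), against 15.7%. ACGT, the core of sites known for mammalian GMEB factors, was in 17 (34.7%), against 24.6% and 20.8% of upstream windows. The differences were not tested, since summits are not replicates and the motifs came from an earlier description of the same regions. Windows at unbound receptor promoters were not scored separately. Whether the motifs mark bound receptor promoters or receptor promoters in general is therefore not known.

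Rank, chromosome and shared promoters were set beside these motif shares. Among promoter summits outside the 1000 strongest, GAGAGA was in 24 of 47 receptor windows (51.1%) and in 21.8% of 1655 others. ACGCAG was in 31.9% against 13.7% there. Over summits that lie in the promoter of 1 gene only, GAGAGA was in 54.8% of 42 receptor windows and 21.2% of 1680 others. On V the share was 48% of 25 receptor windows against 18.5% of 439 others, and off V it was 54.2% of 24. GAGAGA was thus about as frequent on V as elsewhere in the family. The receptor windows had a median GC content of 40.6% and all promoter windows 43.6%, and the part of GC content in the motif shares was not tested.

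Several windows held both motifs in one stretch. GAGAGA and ACGCAG occurred together in 10 receptor windows (20.4%), against 4.92% of other promoter summits. The 9-base sequence GAGACGCAG, chosen after the windows had been seen, contains ACGCAG and can overlap GAGAGA. It was in 9 receptor windows, or 18.4%, those of nhr-13, nhr-34, nhr-58, nhr-65, nhr-80, nhr-87, nhr-119, nhr-184 and nhr-256, against 7.73% of other promoter summits and 1.25% of upstream windows. The first 5 of these windows show it, read on the gene's strand as CTGCGTCTC, at 3 of the strongest members (nhr-119, nhr-34 and nhr-256) and at the fat metabolism receptors nhr-80 and nhr-13, and the last is nhr-10, which has ACGCAG without it. They are from the WBcel235 assembly, written 5' to 3' on the gene's strand, with the 6 motifs in capitals.
nhr-119 (chrII:2800962-2801062, minus strand): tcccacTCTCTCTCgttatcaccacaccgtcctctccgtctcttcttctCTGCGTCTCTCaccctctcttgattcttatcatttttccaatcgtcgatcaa
nhr-34 (chrIV:9670090-9670190, minus strand): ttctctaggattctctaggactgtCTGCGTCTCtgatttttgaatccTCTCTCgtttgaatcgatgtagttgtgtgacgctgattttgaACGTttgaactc
nhr-256 (chrV:1743665-1743765, plus strand): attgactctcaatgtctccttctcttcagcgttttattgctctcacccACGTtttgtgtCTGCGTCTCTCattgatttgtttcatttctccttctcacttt
nhr-80 (chrIII:15419-15519, minus strand): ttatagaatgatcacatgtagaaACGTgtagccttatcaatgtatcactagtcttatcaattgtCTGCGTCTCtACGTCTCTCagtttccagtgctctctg
nhr-13 (chrV:2192308-2192408, plus strand): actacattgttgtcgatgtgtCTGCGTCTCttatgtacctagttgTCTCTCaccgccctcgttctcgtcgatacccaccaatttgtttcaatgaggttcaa
nhr-10 (chrIII:7116336-7116436, minus strand): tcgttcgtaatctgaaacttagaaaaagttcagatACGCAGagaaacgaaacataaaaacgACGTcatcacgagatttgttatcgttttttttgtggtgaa

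Other receptor windows held none of these motifs. Of the 49, 13 (26.5%) had none of the 5 shorter motifs, against 37.8% of other promoter summits. The following 4 are shown because they include the second strongest summit (nhr-142), a hypoxia-responsive receptor gene (nhr-57), a receptor gene of intestinal immunity (nhr-86) and the tRNA-adjacent summit in an intron of nhr-41. That no motif was found says only that these letters are not in these 101 bases.
nhr-142 (chrV:5791011-5791111, minus strand): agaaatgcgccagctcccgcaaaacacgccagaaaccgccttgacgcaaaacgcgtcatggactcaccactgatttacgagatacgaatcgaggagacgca
nhr-57 (chrV:4131691-4131791, plus strand): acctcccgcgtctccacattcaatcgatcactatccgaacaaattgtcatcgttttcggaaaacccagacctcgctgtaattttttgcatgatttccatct
nhr-86 (chrV:2066915-2067015, minus strand): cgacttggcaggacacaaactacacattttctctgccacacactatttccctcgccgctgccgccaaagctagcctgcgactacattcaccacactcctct
nhr-41 (chrIV:1388255-1388355, plus strand): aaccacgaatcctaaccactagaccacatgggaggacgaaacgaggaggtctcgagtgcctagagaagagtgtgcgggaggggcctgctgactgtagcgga

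**Figure D2:**
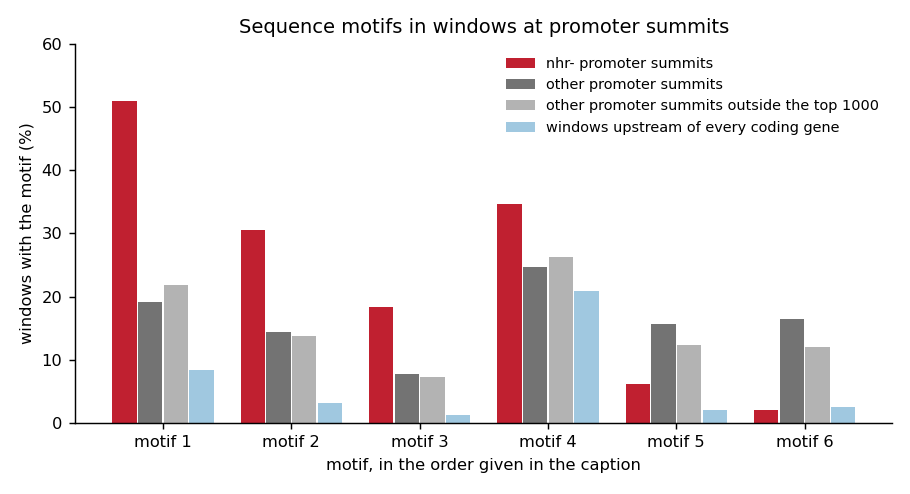
Percent of 101 bp windows that hold a motif on either strand, at the 49 nhr- promoter summits (red), the 2498 other promoter summits (dark grey), the 1655 of those outside the 1000 strongest (light grey) and windows upstream of every coding gene (blue). Motif 1 is GAGAGA, motif 2 is ACGCAG, motif 3 is GAGACGCAG, motif 4 is ACGT, motif 5 is GAGCGC and motif 6 is ACGCGC, and the red bars are the highest for motifs 1 to 4 and lie below the dark grey bars for motifs 5 and 6.

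Among receptors with a known role, those of fat metabolism and longevity had 5 of 7 bound, beside 16.4% of all protein-coding genes. With the 1954 strongest regions it was 1 of 7, nhr-49, and with each replicate's own top regions it was 3 (replicate 1) and 4 (replicate 2). Of all genes 10.2%, 11.8% and 16.5% were bound in these settings. The bound genes were nhr-49, an activator of fatty acid oxidation and desaturation in fasting, its partners nhr-80, nhr-13 and nhr-66, and nhr-62, which is needed for the long life of diet-restricted worms. The summit at nhr-49 (I 9869316), 335 bp upstream of a start, had a signal of 96.3 and rank 1337, with ranks 948 in replicate 1 and 1337 in replicate 2. At nhr-66 (IV 8229766, signal 61.4, rank 2240) the ranks were 1913 and 2137, and at nhr-13 (V 2192358, signal 60.7, rank 2281) they were 2453 and 2375. These 3 were within the top 3909 regions of both replicates. At nhr-80 (III 15469, signal 67, rank 2012) replicate 1 gave rank 11169 and replicate 2 gave 2146. At nhr-62 (I 9842561, signal 44.4, rank 3348) the summit lay in no region of replicate 1 and ranked 4166 in replicate 2. It was in an intron of the gene, 935 bp upstream of an internal start. The summit at nhr-66 was also inside its gene, in a 5' UTR 189 bp upstream of an internal start. The other 2, nhr-64 and nhr-76, which takes part in fat loss driven by serotonin, had no IDR summit, and their best promoter regions ranked 5806 and 26264 in replicate 2.

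Receptors of the propionate and vitamin B-12 pathway had 2 of 3 bound, beside 16.4% of all protein-coding genes. It was 1 of 3 with the 1954 strongest regions (all genes 10.2%) or with either replicate's own top regions (11.8% and 16.5%). That gene was nhr-68 in the strongest regions and in replicate 2, but nhr-114, which is not among the 2, in replicate 1. NHR-10 and NHR-68 together switch on an alternative route of propionate breakdown when the vitamin is scarce. The summit at nhr-68 (V 11573016, signal 86.6, rank 1509) ranked 10769 in replicate 1 and 1287 in replicate 2. That at nhr-10 (III 7116386, signal 39.0, rank 3874), 948 bp upstream, ranked 4975 and 4374, outside the top 3909 of each replicate. The third, nhr-114, which protects the germline from tryptophan-derived toxicity, had no IDR summit but a region ranked 2888 in replicate 1 and 3962 in replicate 2. So nhr-114 was ranked higher in both replicates than nhr-10, although only nhr-10 had an IDR summit in its promoter. In the list called on both replicates together the order was the reverse, with nhr-10 at rank 3874 and nhr-114 at rank 4572.

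Of 5 receptors that respond to toxins, pathogens or low oxygen, 2 were bound, beside 16.4% of all protein-coding genes. At nhr-57 (V 4131741, 148 bp upstream, signal 83.9, rank 1562), a target of the hypoxia factor HIF-1, the ranks were 539 in replicate 1 and 1868 in replicate 2. At nhr-86 (V 2066965, signal 39.3, rank 3825) the summit was in no region of replicate 1 and ranked 2945 in replicate 2. No IDR summit lay in the promoters of nhr-176, a receptor for the drug thiabendazole, nhr-45 or nhr-14. Their best regions ranked 7568, 4975 and 24803 in replicate 2. Of 4 receptors with roles in development or neuronal signalling, nhr-69 was bound (I 9882264, 760 bp upstream, signal 56.7, rank 2481, replicate 2 rank 2099, in no region of replicate 1). The others, nhr-2, nhr-40 and nhr-60, were not. With the 1954 strongest regions or replicate 1 alone, these 2 lists had 1 of 5 and 0 of 4 bound. Of all genes 10.2% and 11.8% were bound in these settings. These role lists are short, and a difference between them was not tested.

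**Figure D3:**
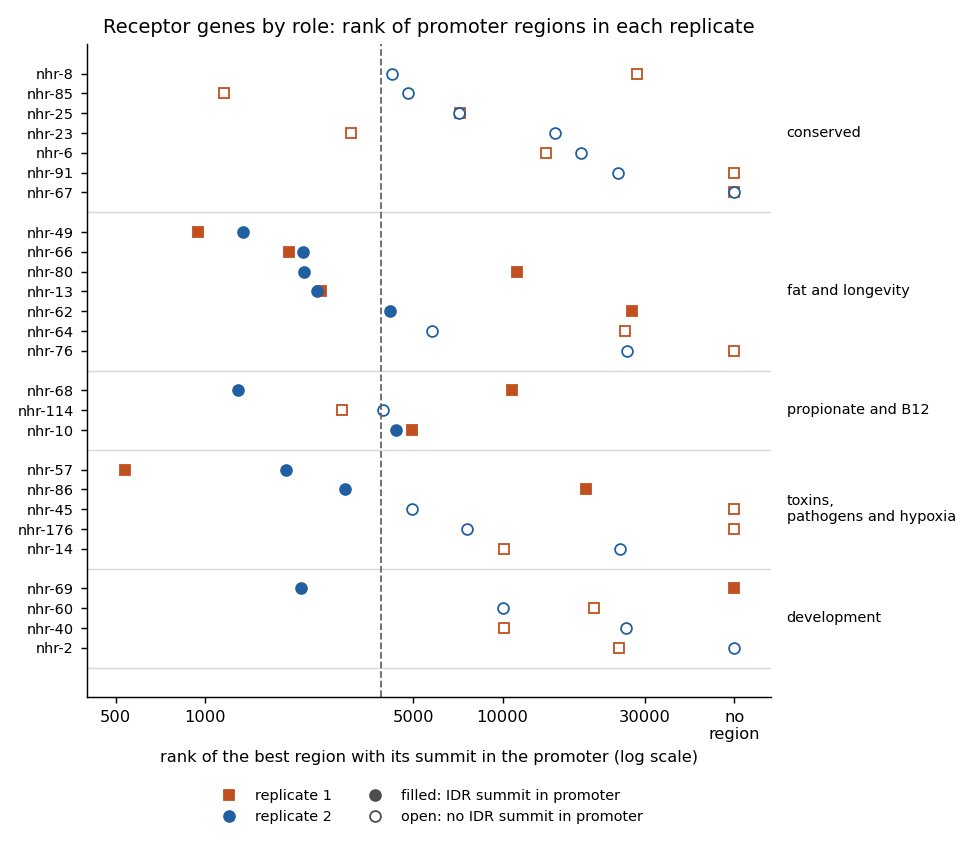
Rank (log scale) of the best region with its summit in the promoter for each receptor gene of 5 lists, in replicate 1 (squares) and replicate 2 (circles), with genes that have an IDR summit in the promoter filled, a dashed line at rank 3909 and genes with no such region at the right edge. A replicate's region may peak in the promoter without holding the IDR summit, as at nhr-62 and nhr-86 in replicate 1. In the fat and longevity list nhr-49, nhr-66 and nhr-13 lie left of the line in both replicates, while no conserved receptor does so in both, and nhr-85 and nhr-23 do in replicate 1.

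The conserved receptors had 0 of 7 bound, beside 16.4% of all protein-coding genes, and 7 genes are few. At nhr-85, the Rev-erb relative that takes part in developmental timing, the best promoter region ranked 1160 in replicate 1 and 4808 in replicate 2. An IDR summit of rank 2369 lay in an intron of the gene, and the IDR summit nearest to one of its starts was 1028 bp away, outside the promoter as set here. At nhr-8, a relative of vertebrate xenobiotic and vitamin D receptors, the ranks were 28288 and 4262, and the nearest IDR summit was 1080 bp away. At nhr-23, the ROR relative that drives moulting, they were 3086 and 14959. At nhr-25, the relative of SF-1 and FTZ-F1 that acts in moulting and the epidermis, they were 7214 and 7135. At nhr-6, the NGFI-B relative needed for the spermatheca, they were 14029 and 18275. The GCNF relative nhr-91 had a region only in replicate 2, at rank 24338, and the tailless relative nhr-67, which acts in the anchor cell and in neurons, had none in either. Distances from these 5 genes to the nearest IDR summit ran from 9680 bp at nhr-67 to 55397 bp at nhr-23.

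The count for the conserved receptors depended on the setting. With a promoter from 2000 bp upstream to 500 bp downstream, nhr-8 and nhr-85 were bound, which made 2 of 7, and the family then had 62 of 269 bound (23%, beside 20.8% of all genes). With the top regions of replicate 1 alone, nhr-23 and nhr-85 were bound, or 2 of 7, beside 11.8% of all genes. These 7 genes had a median distance of 4816 bp to the next protein-coding gene upstream, against 1590 bp over the family and 937 bp over all genes. They also had 3 transcript starts at the median, against 1. A list of 13 adds nhr-41 and nhr-48 with the receptor genes daf-12, fax-1, sex-1 and unc-55. It had 2 of 13 bound, nhr-41 and nhr-48, beside 16.4% of all genes. The summit at nhr-41 (signal 86.5, rank 1510), a relative of TR2 and TR4, ranked 1626 and 1586 in the replicates. That at nhr-48 (X 15707520, signal 52.9, rank 2701), a close relative of nhr-8, ranked 2028 and 3019.

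The family was unevenly spread, with 167 of its 269 genes on V. There 25 were bound, or 15%, against 12% of all 4994 genes on V. On the other chromosomes 23 of 102 were bound, or 22.5%, against 17.8% of all 14979 genes. On IV 9 of 33 were bound (27.3%, against 15.8%) and on X 6 of 23 (26.1%, against 12.1%). On I the share was 3 of 23 (13%, against 21.4%), on II it was 3 of 15 (20.0%, against 15.6%) and on III 2 of 8 (25%, against 25.2%). The family's share was thus above that of all genes on 4 chromosomes and below it on I and III, with few genes on each except V. In the arms of V, the outer 25% at each end, 19 of 111 receptor genes were bound (17.1%), against 9.70% of all genes in the arms of V, while in the centre it was 6 of 56 (10.7%) against 14.1%. On the other autosomes the order was the opposite, with 6 of 40 in the arms (15%, against 18.3%) and 11 of 39 in the centres (28.2%, against 19.7%). Over all autosomes arms and centres were close, at 16.6% (all genes 15.6%) and 17.9% (18.1%).

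**Figure D4:**
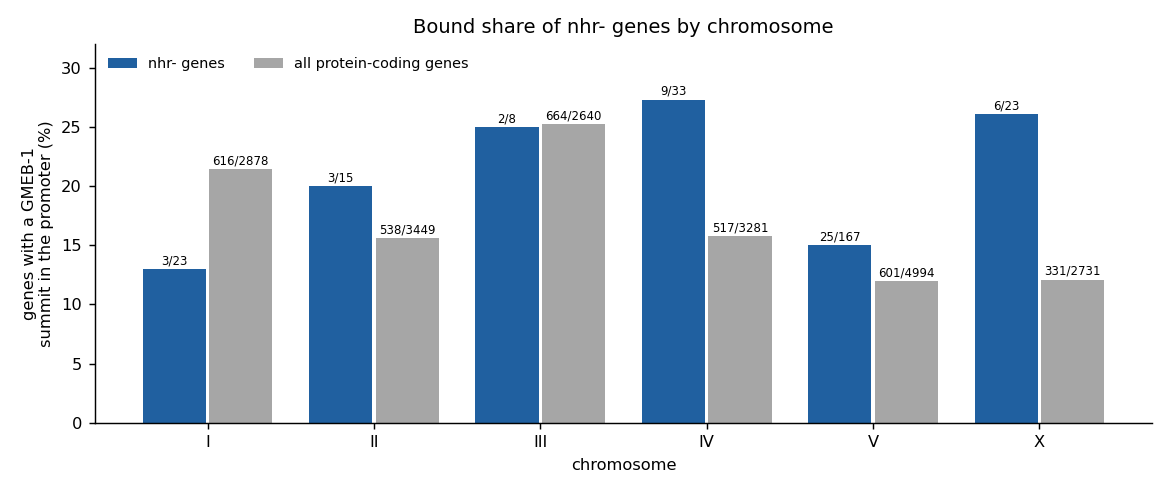
Percent of genes with a GMEB-1 summit in the promoter for nhr- genes (blue) and all protein-coding genes (grey) on each chromosome, with the number bound over the number of genes above each bar. The blue bar is the higher on II, IV, V and X, and V holds 167 of the 269 receptor genes.

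Bound shares were read separately for receptor genes that stood alone and those beside another. Of 132 with no receptor gene as a direct neighbour 32 were bound (24.2%), and of 137 beside another receptor gene 16 were (11.7%). Over all protein-coding genes 16.4% were bound. On V the shares were 12 of 60 (20.0%) and 13 of 107 (12.1%). How reads from near-identical neighbours were placed is not given in the sources used here, and its part in this difference was not tested. Bound members had on average 2.35 transcript starts and unbound members 1.56, and since each start adds promoter sequence, the part of this in the shares was not tested. Their median distance to the next gene upstream was 1684 bp, against 1518 bp for unbound members, while bound protein-coding genes in general had 619 bp. Only 1 of the 48 bound members (2.08%) followed a same-strand neighbour within 300 bp, against 9.95% of unbound members and 8.20% of all bound genes.

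Some bound members lay close together with separate summits. On the left arm of V a stretch of 76.6 kb (V 459637 to 536247) held 13 receptor genes among 26 protein-coding genes, and the 6 genes bound in it were all receptors: nhr-203, nhr-202, nhr-130, nhr-131, nhr-58 and nhr-132. Their summits ranked 2502, 3473, 3070, 3160, 2809 and 2725, all outside the 1954 strongest. Further along V, nhr-13, nhr-184, nhr-56 and nhr-228 were bound within 92.6 kb that held 15 receptor genes and 9 bound genes in all. On I, nhr-62, nhr-49 and nhr-69 were the 3 receptor genes and the only bound genes among 8 protein-coding genes in 42.7 kb. On IV, nhr-34 and nhr-97 lay in a stretch of 24 protein-coding genes, of which 4 were bound. On X, nhr-48 and nhr-255 lay in a stretch of 7, of which 3 were bound. These stretches were found by joining bound members whose summits lay within 100 kb, and they are descriptions. Their ends lie at bound members, so the bound share inside them is raised by construction. Of all genes on V, 12% were bound.

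The remaining bound members off V fell in the middle and lower ranks. On II these were nhr-88 (rank 2603, 853 bp upstream) and nhr-109 (rank 3481). On IV they were nhr-104 (rank 1871, in the 5' UTR), nhr-78 (rank 2394) and nhr-87 (rank 2833), of which nhr-78 and nhr-109 lay in no region of replicate 1. On X they were nhr-255 (rank 1753), nhr-32 (rank 2597), nhr-17 (rank 3099) and nhr-1 (rank 3541). Of these, 4 ranked higher in replicate 1 than in replicate 2: nhr-32 (546 against 3005), nhr-1 (1055 against 4464), nhr-88 (1386 against 2734) and nhr-87 (2796 against 3062).

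Of the 221 unbound members, 8 (3.62%) had an IDR summit between the start and the end of the gene, against 2.31% of all unbound protein-coding genes. All 13 of these summits were intronic and in the promoter of no protein-coding gene. Of them 5 lay in nhr-19 (II 9598180 to 9605526), and the strongest of those (II 9603642) had a signal of 208.0 and rank 540, above all receptor promoter summits but the one at nhr-47. The others in nhr-19 ranked 1496, 1853, 3296 and 3407. In nhr-46 there were 2, of ranks 1528 and 2129, and in nhr-14 there was 1 of rank 1495. The rest were in nhr-3 (rank 1603), nhr-85, nhr-27 (rank 2468), nhr-21 (rank 3050) and nhr-120 (rank 3100). Gene length, which was 102756 bp at nhr-27, was not matched in the shares of 3.62% and 2.31%. Of the bound members, 5 had a further intronic summit outside all promoters: nhr-31 (rank 1261), nhr-17 (rank 2094), nhr-34 (rank 2211), nhr-48 (rank 2874) and nhr-41 (rank 3771). The matching share over all bound genes is not given here. Of the 221 unbound members, 85 had no relaxed region with its summit in the promoter in either replicate, and 53 had one in both. These were 38.5% and 24.0% of the unbound members, against 51.4% and 15.9% of all 16706 unbound protein-coding genes.

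Genes that act with the receptors were read in the same way, beside the 16.4% of all protein-coding genes, in lists chosen with earlier results known. Of 9 genes for hormone synthesis and cofactors 4 were bound. These were strm-1, whose methyltransferase limits the supply of the steroid hormone dafachronic acid (III, signal 376.0, rank 250, a summit shared with the cyclin C gene cic-1), the acetyltransferase coactivator cbp-1 (signal 337.0, rank 295), the DAF-12 corepressor din-1 (rank 1669) and the P450 reductase emb-8 (rank 2706). The hormone synthesis genes daf-9, daf-36, dhs-16 and hsd-1 were not bound, nor was mdt-15, the Mediator subunit that works with NHR-49. Of 9 metabolic targets 5 were bound, and 3 with the 1954 strongest regions (all genes 10.2%) or with replicate 1 alone (all genes 11.8%). They were the acyl-CoA synthetase gene acs-2 (V, 649 bp upstream, signal 103.0, rank 1242) and the desaturase gene fat-6 (rank 3009), which are targets of NHR-49, and the propionate genes hach-1 (rank 844, shared with nmad-1), hphd-1 (rank 1466) and alh-8 (rank 2249). The desaturase genes fat-5 and fat-7 and the propionate genes acdh-1 and ech-6 were not. Of the receptor genes with other names, daf-12, fax-1, sex-1, unc-55 and odr-7 had no IDR summit in the promoter. An IDR summit of rank 2605 lay between the start and the end of daf-12, and its best promoter region ranked 4052 in replicate 1.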

How the data were processed

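The members, gene lists and motifs were chosen with earlier results of these data known. Per the readme deposited with the samples, regions were called on each replicate and on both together against a control and combined by IDR; which caller, aligner and IDR threshold were used, and how repeated reads were handled, is not given in the sources used here. Read numbers were not used here, and depth is unknown. The deposited signal is the authors' caller's value for each region, on scales that differ between lists (maximum 191.1 in replicate 1 and 1996 in replicate 2), so it was used to rank and describe within a list. The deposited −log10 q value was at its maximum in all 3909 IDR regions and was not used to rank. Nothing says that the replicates came from separate cultures.

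Lists in ce11 were joined to WBcel235 and Ensembl release 115, whose chromosome lengths hold every region. Positions count from 1. The lists in ce10 were not used. A promoter was taken from every transcript start of a protein-coding gene. Relaxed regions were matched to a gene by their own summit, and to an IDR summit by holding it. No test or p-value was computed. Genes were named by rule: the conserved receptors, the 15 strongest and 3 weakest bound members, the role and pathway lists, members that share a summit and bound members off V. nhr-19, nhr-46 and the other members with intronic summits, nhr-58 and its neighbours, and nhr-65, nhr-87 and nhr-184 in the motif list were named after their values were seen. A grouping by P-box residues was planned and not made, since protein sequences were not used here. Windows that overlap an annotated UTR are not printed. Alternatives were other promoters, the 1954 stronger regions, each replicate's own 3909 strongest regions, the nearest start, region overlap of 1 bp and genes with no same-strand neighbour within 300 bp upstream. The assignment of summits was tested on simulated data, and all 500 planted pairs were recovered. Python 3.11.15, numpy 2.4.6, pandas 2.3.3 and matplotlib 3.10.9 were used.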

Additional observations from a re-analysis of the deposited data

How the results depend on the processing

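Of 77 recomputed values, 51 stayed within 1.5 times the reported one, or, for a motif share, within its interval. The family's count of 48 became 16 with the 1954 strongest regions and ran from 31 to 41 when one replicate was left out. On V the count of 25 became 7 with the strongest regions and ran from 15 to 22 over the replicates, and off V the count of 23 became 15 in the narrower promoter (500 and 100 bp) and 9 with the strongest regions, with 16 to 19 over the replicates. The conserved count of 0 became 2 in the wider promoter (2000 and 500 bp), 1 by region overlap and 2 in the list of 13, and was 0 to 2 over the replicates. Bound members with a shared summit, 7 of 48, became 2 of 35 in the narrower promoter, 15 of 62 in the wider and 3 of 16 with the strongest regions. With replicate 1 alone they were 3 of 31 and with replicate 2 alone 6 of 41. GAGAGA was at 28.6% in windows of 25 bp to either side (others 10.5%), and at 39.4% to 45.2% over the replicates (others 19.3% and 18.6%), settings chosen after seeing the data. Also chosen after seeing the data, the lists' counts with the strongest regions became 1 for fat and longevity (5; 3 to 4 over the replicates), 1 for propionate (2; 1 and 1), 1 for toxins, pathogens and hypoxia (2; 1 to 2), 0 for development (1; 0 to 1) and 3 for metabolic targets (5; 3 to 5). The share over all genes, 16.4%, became 10.2% with the strongest regions and ran from 11.8% to 16.5% over the replicates. Smaller windows and fewer regions lower these counts by construction, and for the rest the cause was not tested. No paired analysis was possible because there is 1 group.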
